A study of Mus musculus with 12 samples.

Results

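The acid-secreting machinery of osteoclasts was followed here as 31 named genes among the 55414 gene IDs counted: 17 subunits of the vacuolar proton pump, its 2 accessory proteins, 5 proteins of ion and proton handling and 7 of lysosomes and their traffic. The genes were chosen by name and function, with earlier results of these data known. Osteoclasts are the multinucleated cells that resorb bone. They had been grown from bone marrow macrophages of male mice aged 7 to 8 weeks, per the labels, with M-CSF at 30 ng/ml and with RANKL added at day 3 for 4 days. RNA was sequenced in 12 cultures, 3 labelled biological replicates in each of 4 groups: Notch2 mutant with Hes1 deletion, Notch2 mutant with Hes1 loxP, wild type with Hes1 deletion and wild type with Hes1 loxP. In the Hes1 loxP groups the Hes1 gene is flanked by loxP sites, and wild type refers to Notch2 alone. The design text speaks of sex-matched littermate controls. The labels name neither the Notch2 mutation nor how Hes1 was deleted nor the strain, which limits what the groups model.

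The vacuolar proton pump is a rotary machine. Its cytosolic V1 part burns ATP, its membrane V0 part carries protons, and each position can be filled by alternative subunits encoded by different genes. In osteoclasts the pump sits in lysosomes and in the ruffled border facing bone, where the acid dissolves mineral. The a3 subunit, encoded by Tcirg1, and the d2 subunit, encoded by Atp6v0d2, are the forms most tied to osteoclasts. Acid secretion also needs chloride to follow the protons (Clcn7 with its partner Ostm1), carbonic anhydrase to supply protons (Car2), bicarbonate export (Slc4a2) and delivery of lysosomes to the ruffled border (Snx10, Plekhm1, Rab7). Loss of Tcirg1, Clcn7, Ostm1, Snx10, Car2 or Plekhm1 is known to cause osteopetrosis, the failure to resorb bone.

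Each library held between 13832368 and 19293772 counts in genes. Hes1 was scarce: its counts over 3 libraries summed to 2 in the Notch2 mutant and 2 in the wild type Hes1 deletion groups, against 7 in the Notch2 mutant and 23 in the wild type Hes1 loxP groups. By library, Hes1 stood at 0, 0.0595 and 0.0625 CPM (depth-scaled and TMM-scaled counts) in Notch2 mutant Hes1 deletion cultures, against 0.221, 0.113 and 0.116 CPM in Notch2 mutant Hes1 loxP cultures. It stood at 0, 0 and 0.122 CPM in wild type Hes1 deletion cultures, against 0.431, 0.573 and 0.334 CPM in wild type Hes1 loxP cultures. Within each genotype the deletion libraries lay below the loxP libraries, at counts too few for a test. Notch2 itself ranged from 147.3 to 174.2 CPM over the 12 libraries, and its RNA level does not check an unnamed mutation. All 11 osteoclast markers were present in every library, with means from 27.4 CPM for Calcr, the calcitonin receptor, to 21363 CPM for Mmp9, a gelatinase; Acp5, which encodes TRAP, averaged 7938 CPM and Ctsk, the bone collagenase cathepsin K, 7357 CPM. In the wild type Hes1 deletion group replicate 3 stood apart, with the lowest level of any library for 14 of the 30 tested pump and acidification genes and differences from its replicates that reached a chi-square of 8.20 per gene. At the other end, Notch2 mutant Hes1 loxP replicate 3 had the highest level of any library for 18 of the 30. Its difference from replicate 2 of its group reached a chi-square of 7.58 per gene. Calls among the 30 genes that change without wild type Hes1 deletion replicate 3 are given with and without it, and so are some other counts. Calls of markers and of the other gene lists are given only with it.

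The pump genes were abundant, and the osteoclast forms dominated. The 17 subunits together took 1.196 to 1.266% of gene counts in Notch2 mutant and 1.095 to 1.161% in wild type libraries. Per length (RPKM, TMM-scaled CPM per kilobase of the principal transcript), the order over 12 libraries began with Atp6v0c at 981.9 RPKM, the ring subunit c, of which each pump holds several copies. It continued with Atp6v1b2, the B2 subunit, at 813.1 RPKM, Atp6v0b, the ring subunit c″, at 703.3 RPKM, Tcirg1 at 517.5 RPKM, Atp6v0d2 at 515.5 RPKM and Atp6v1a, the catalytic A subunit, at 381.6 RPKM. The ranges over libraries overlapped between Atp6v0c and Atp6v1b2, between Atp6v1b2 and Atp6v0b and between Tcirg1 and Atp6v0d2. They did not overlap between Atp6v0b and Tcirg1 or between Atp6v0d2 and Atp6v1a. Lengths over all annotated exons differ unevenly from these, at 2051 against 1000 bases for Atp6v0b and 2716 against 2539 for Atp6v0d2. The order and its gaps therefore depend on the length chosen, and they were not computed with all exons. Levels of 7 genes are uncertain because sequence of another gene matches over 10% of their principal transcript at 95% identity or more. These were Atp6v1f (51.2%), Atp6v0c (39.3%), Atp6v1g1 (31.5%), Rab7 (28.8%) and Atp6ap2 (18.8%), and 2 whose match is an overlapping antisense gene, Slc4a2 with Fastk (16.7%) and Atp6v0a2 with 4930404A12Rik (12.5%). Antisense genes also overlap the exons of Atp6v0b (Gm12841, 11.8% of exon length), Rab7 (Gm5577, 7.82%), Ostm1 (Gm15200, 5.69%) and Plekhm1 (Arhgap27os1, 5.60%). The widely used forms of the a subunit were far lower, Atp6v0a2 at 15.9 RPKM and Atp6v0a1 at 11.6 RPKM. Atp6v0d1, the widely used d form, stood at 136.7 RPKM. Of the other members, Lamp1, a lysosomal membrane glycoprotein, reached 315.4 RPKM, and Rab3d, a small GTPase of secretory vesicles, was lowest of the 30 tested at 11.3 RPKM. Atp6v0e2, an alternative e subunit, had 36 counts over 12 libraries, with 9 and 4 in the Notch2 mutant Hes1 deletion and loxP groups and 9 and 14 in the wild type Hes1 deletion and loxP groups; it fell below the filter on low counts and was not tested.

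**Figure D1:**
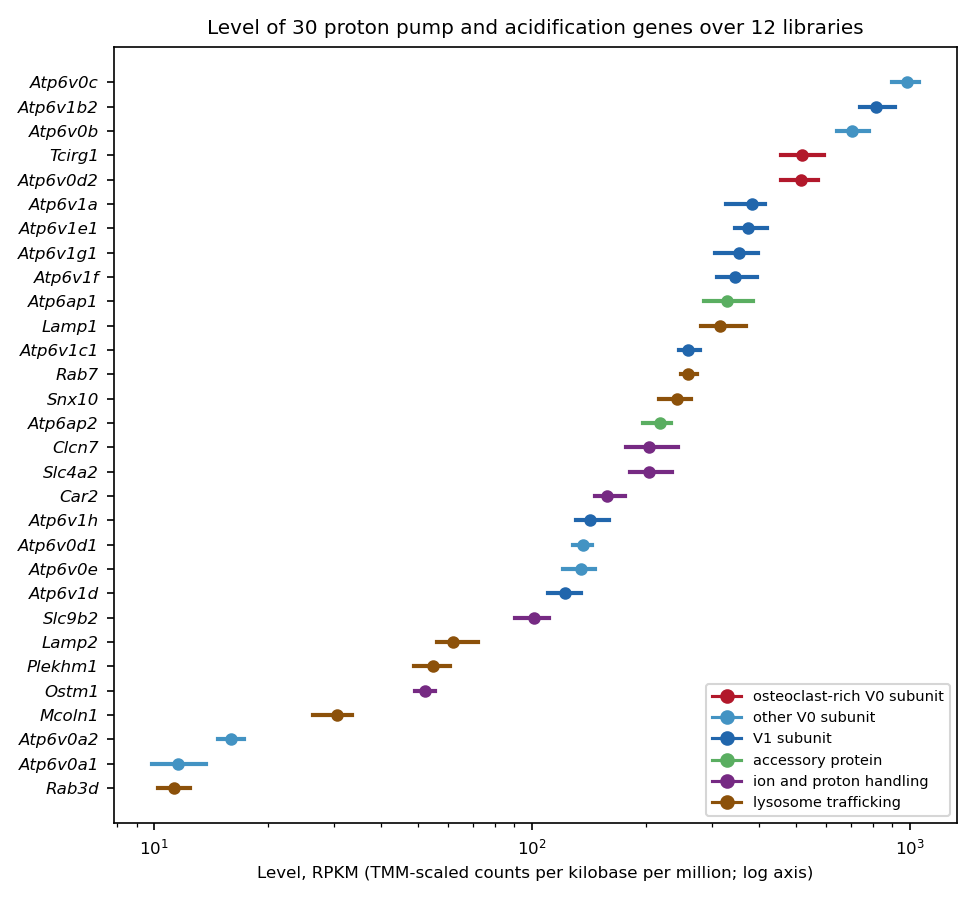
Level of 30 genes per length on a log axis (RPKM, TMM-scaled CPM per kilobase). Points are means of 12 libraries, bars run from the lowest to the highest library, and colours give the gene's role. Tcirg1 and Atp6v0d2, at 517.5 and 515.5 RPKM, lie far above Atp6v0a1, at 11.6 RPKM.

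Within the a family the a3 form held nearly everything. Per length, Tcirg1 made up 95.3% ± 0.059 of a subunit RNA in Notch2 mutant Hes1 deletion cultures and 94.6% ± 0.60 in wild type Hes1 deletion cultures (SD, n = 3 each). With Hes1 loxP its share was 95.4% ± 0.32 in Notch2 mutant and 94.4% ± 0.42 in wild type cultures (SD, n = 3 each). By library, the Notch2 mutant values ran from 95.11 to 95.74% with Hes1 loxP, against 94.11 to 94.85% in wild type, and from 95.28 to 95.38% with the Hes1 deletion, against 93.92 to 95.07% in wild type. The mutant and wild type libraries did not overlap in either Hes1 state. This difference was not tested, and it is a share of the same counts as the fold changes given below.

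The share of Atp6v0a1, the a1 form common in neurons, went the other way. It ran from 1.60 to 2.09% of a subunit RNA in Notch2 mutant Hes1 loxP libraries, against 2.34 to 2.69% in wild type Hes1 loxP libraries, and from 1.84 to 1.96% in Notch2 mutant Hes1 deletion libraries, against 2.05 to 2.53% in wild type Hes1 deletion libraries. Again the libraries did not overlap within either Hes1 state. The share of Atp6v0a2 was lower in mutant libraries too, also without overlap. It ran from 2.66 to 2.79% in Notch2 mutant and 2.81 to 3.28% in wild type Hes1 loxP libraries. With the deletion it ran from 2.76 to 2.86% in Notch2 mutant and 2.88 to 3.55% in wild type libraries. The shares of a family make up its whole, so the rest must fall when that of Tcirg1 rises. Lower shares therefore do not show less Atp6v0a1 or Atp6v0a2 RNA. The d family was less one-sided. Atp6v0d2 held 79.6% ± 0.69 of d subunit RNA in Notch2 mutant and 77.9% ± 1.3 in wild type Hes1 loxP cultures, and 79.5% ± 1.3 in Notch2 mutant and 79.0% ± 0.30 in wild type Hes1 deletion cultures (SD, n = 3 each), with overlapping libraries in both. Lengths taken over all annotated exons, an alternative chosen after seeing the data, gave 94.5% for Tcirg1 and 79.5% for Atp6v0d2 over 12 libraries, against 94.9% and 79.0% with principal transcripts.

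Forms known from other tissues were nearly missing. The kidney and inner ear form Atp6v1b1, the testis form Atp6v1e2, the kidney form Atp6v1g3 and the accessory relative Atp6ap1l had 0 counts over 12 libraries, which allows up to 0.0151 CPM over the libraries (3 counts of their total; counting error only). Atp6v0a4, the a form of kidney and inner ear, had 2 counts and Atp6v1c2, an alternative C subunit, had 1. Atp6v1g2, the neuronal G form, was the exception with 443 counts and 0.411% ± 0.096 of G subunit RNA per length (SD, n = 12). It was the one gene of these 7 that passed the filter, and it was not called in any comparison.

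**Figure D2:**
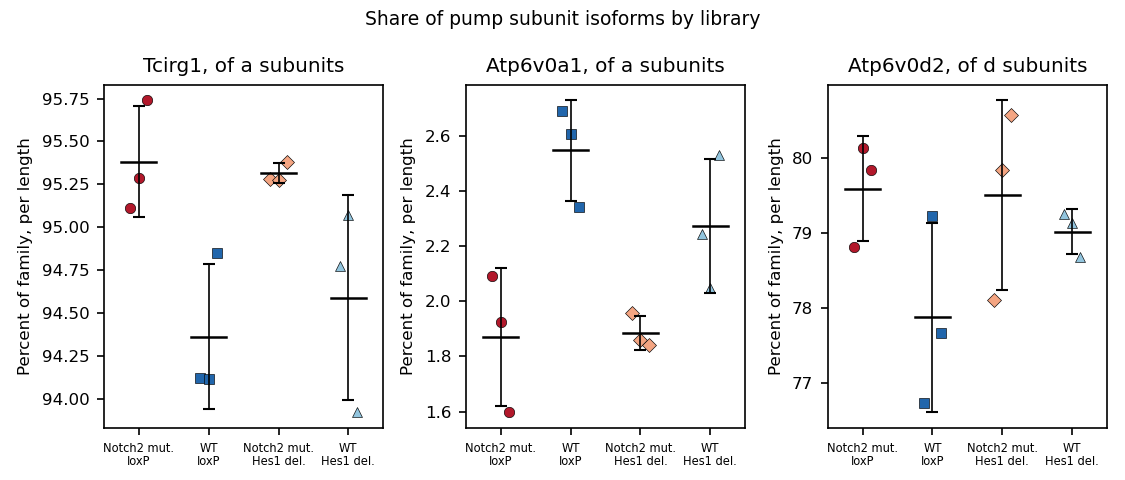
Share of the a subunit family held by Tcirg1 and by Atp6v0a1, and of the d family held by Atp6v0d2, in percent per length. Each point is a library, the line is the mean of 3 and the bar its SD; axes do not start at 0. Within each Hes1 state, Notch2 mutant libraries lie above wild type for Tcirg1, 95.11 to 95.74% against 94.11 to 94.85% with Hes1 loxP, and below it for Atp6v0a1.

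Many lysosomal genes carry the letters CACGTG near their start, which the TFEB and MITF transcription factor family can read. The 250 bases before the start were searched on both strands (the motif reads the same on both) in the RefSeq promoter table of GRCm38.p6, which held 24 of the 31 genes in 33 promoters. The motif stood in 5 of the 24 genes and 15.2% of the 33 promoters, against 6.63% of promoters of all protein-coding genes. It began 36 and 18 bases before the RefSeq start of Atp6v0b, 131 before that of Atp6v1a, 15 before Clcn7, 61, 45, 28 and 15 before Lamp1, and 71 and 45 before Mcoln1. The first exon in GENCODE reaches further upstream than the RefSeq start in 3 of these, by 4 bases for Atp6v0b, 46 for Atp6v1a and 62 for Mcoln1, so the nearer match of Mcoln1 lies inside that exon. The longer form TCACGTGA stood in 2 of the 33 promoters, against 1.01% of protein-coding promoters. Shown are 120 bases, 5′ to 3′ on the gene's own strand, ending next to the first exon in GENCODE, with the motif in capitals. Clcn7 and Tcirg1 are given because both rose in the mutants, Atp6v0b as a V0 subunit with 2 matches, and Lamp1 because it holds the most matches and its values lay on the other side of the wild type. Their positions in GRCm38.p6 are chr17:25133271-25133390 (plus strand) for Clcn7, chr19:3907134-3907253 (minus strand) for Tcirg1, chr4:117887334-117887453 (minus strand) for Atp6v0b and chr8:13159041-13159160 (plus strand) for Lamp1.
Clcn7: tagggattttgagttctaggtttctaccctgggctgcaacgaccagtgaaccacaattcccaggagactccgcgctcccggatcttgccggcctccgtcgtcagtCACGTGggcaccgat
Tcirg1: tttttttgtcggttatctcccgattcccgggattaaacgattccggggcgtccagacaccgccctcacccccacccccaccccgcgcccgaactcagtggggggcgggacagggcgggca
Atp6v0b: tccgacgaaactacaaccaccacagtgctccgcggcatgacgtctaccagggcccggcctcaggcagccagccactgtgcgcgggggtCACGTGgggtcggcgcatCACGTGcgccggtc
Lamp1: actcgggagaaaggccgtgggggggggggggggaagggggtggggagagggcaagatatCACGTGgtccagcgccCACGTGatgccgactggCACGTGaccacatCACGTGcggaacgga
The window of Tcirg1 has no capitals, which says that these letters do not occur there. The motif is a match of letters, and binding was not measured.

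The Notch2 mutation was compared with wild type within each Hes1 state and as the mean of both, by edgeR's quasi-likelihood test with Benjamini-Hochberg adjustment over 13403 genes and a threshold of 0.05. On the mean of both Hes1 states, 5 of 30 pump and acidification genes rose and 0 fell, against 0.768% of all genes called higher and 1.12% called lower. The 5 were Tcirg1, Clcn7 and the pump subunits Atp6v1f, Atp6v1b2 and Atp6v0e. Their log2 fold changes were small, 0.13 to 0.21.

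Tcirg1 (chr19:3896050-3907133, minus strand), whose a3 subunit carries protons across the ruffled border, had 1689.7, 1642.2 and 1801.1 CPM in Notch2 mutant and 1462.4, 1387.5 and 1589.6 CPM in wild type Hes1 loxP libraries. With the Hes1 deletion it had 1669.5, 1575.9 and 1744.2 CPM in Notch2 mutant and 1442.4, 1487.3 and 1394.2 CPM in wild type libraries. Mutants were higher in each Hes1 state without overlap, though the lowest mutant deletion library lay below the highest wild type loxP library. The log2 fold change was 0.21 ± 0.040 (SE; 95% interval 0.12 to 0.29, 15.5% higher; adjusted p = 0.0132), and the 2 states gave 0.21 ± 0.057 with the Hes1 deletion and 0.21 ± 0.057 with Hes1 loxP. Leaving out replicate 3 of the Notch2 mutant Hes1 deletion group ended the call (adjusted p = 0.0551), and it held in the other 18 of 19 alternatives.

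Clcn7 (chr17:25133391-25162104, plus strand), the chloride-proton exchanger of lysosomes and the ruffled border, had 898.2, 845.9 and 992.2 CPM in Notch2 mutant and 741.3, 770.1 and 827.5 CPM in wild type Hes1 loxP libraries. In Hes1 deletion libraries it had 877.8, 805.2 and 923.3 CPM with mutant Notch2 and 800.5, 782.2 and 724.7 CPM in wild type. The groups did not overlap within either state. On the mean of both, it rose by 0.20 ± 0.045 on the log2 scale (adjusted p = 0.0310). Its partner Ostm1 had a log2 fold change of 0.03 ± 0.036 (adjusted p = 0.766). The ratio of Clcn7 to Ostm1 counts averaged 5.82 ± 0.77 in Notch2 mutant and 4.91 ± 0.33 in wild type Hes1 loxP cultures, and 5.48 ± 0.56 in Notch2 mutant and 5.08 ± 0.48 in wild type Hes1 deletion cultures (SD, n = 3 each). The ratios of mutant and wild type libraries overlapped in both states, and their difference was not tested.

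Atp6v1f (chr6:29467718-29470512, plus strand), the F subunit of the pump's central stalk, had 260.4, 249.96 and 277.1 CPM in Notch2 mutant and 217.2, 219.9 and 236.1 CPM in wild type Hes1 loxP libraries. The corresponding Hes1 deletion libraries had 252.3, 241.2 and 255.3 CPM with mutant Notch2 and 237.5, 241.3 and 222.1 CPM in wild type. Mutants lay above wild type without overlap with Hes1 loxP, and overlapped at one library each with the deletion. It was the single gene of the 30 called with Hes1 loxP (0.23 ± 0.051, adjusted p = 0.0464), where 0.776% of all genes were called. That call was lost without any of 10 libraries and with only the groups compared, at log2 fold changes from 0.18 to 0.26. The 104 calls over all genes there depended on single libraries of the loxP groups: omitting replicate 1 of wild type left 26, replicate 2 of wild type 35, replicate 2 of the Notch2 mutant 46 and replicate 3 of the Notch2 mutant 28. Omitting replicate 3 of wild type Hes1 deletion gave 289. On the mean of both states Atp6v1f rose by 0.16 ± 0.036 (adjusted p = 0.0293). The near-identical sequence AC169506.3 matches 51.2% of its principal transcript at 95% identity or more, so its counts may be incomplete or shared.

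Atp6v1b2 (chr8:69088646-69113711, plus strand), which encodes the B subunit that pairs with the catalytic A subunit, had 2369.0, 2372.4 and 2577.7 CPM in Notch2 mutant and 2126.5, 2236.0 and 2233.6 CPM in wild type Hes1 loxP libraries. With the deletion it had 2326.1, 2347.6 and 2454.8 CPM in Notch2 mutant and 2229.7, 2200.8 and 2091.2 CPM in wild type libraries. It was the one gene of the 30 whose 6 mutant libraries all lay above all 6 wild type libraries, which 0.627% of all genes did (0.14 ± 0.035, adjusted p = 0.0476).

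Atp6v0e (chr17:26663231-26699647, plus strand), a small membrane subunit of V0, rose by 0.13 ± 0.033 (adjusted p = 0.0476). It had 399.1, 396.6 and 412.8 CPM in Notch2 mutant and 364.3, 362.7 and 377.3 CPM in wild type Hes1 loxP libraries. With the deletion it had 398.3, 374.0 and 404.8 CPM in Notch2 mutant and 369.0, 365.5 and 339.7 CPM in wild type Hes1 deletion libraries. The groups did not overlap within a state. The 4 calls besides Tcirg1 were close to the threshold. Those of Clcn7 and Atp6v1f on the mean of both were lost without wild type Hes1 loxP replicate 1 or 2, Notch2 mutant Hes1 loxP replicate 3, wild type Hes1 deletion replicate 3, or Notch2 mutant Hes1 deletion replicate 1 or 3. Atp6v0e lost its call without any of 9 libraries and Atp6v1b2 without any of 11. Over all alternatives the log2 fold change ran from 0.17 to 0.23 for Clcn7, 0.14 to 0.18 for Atp6v1f, 0.12 to 0.15 for Atp6v1b2 and 0.11 to 0.15 for Atp6v0e. Without wild type Hes1 deletion replicate 3 the count called was 1, Tcirg1. Without Notch2 mutant Hes1 deletion replicate 3 it was 0.

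**Figure D3:**
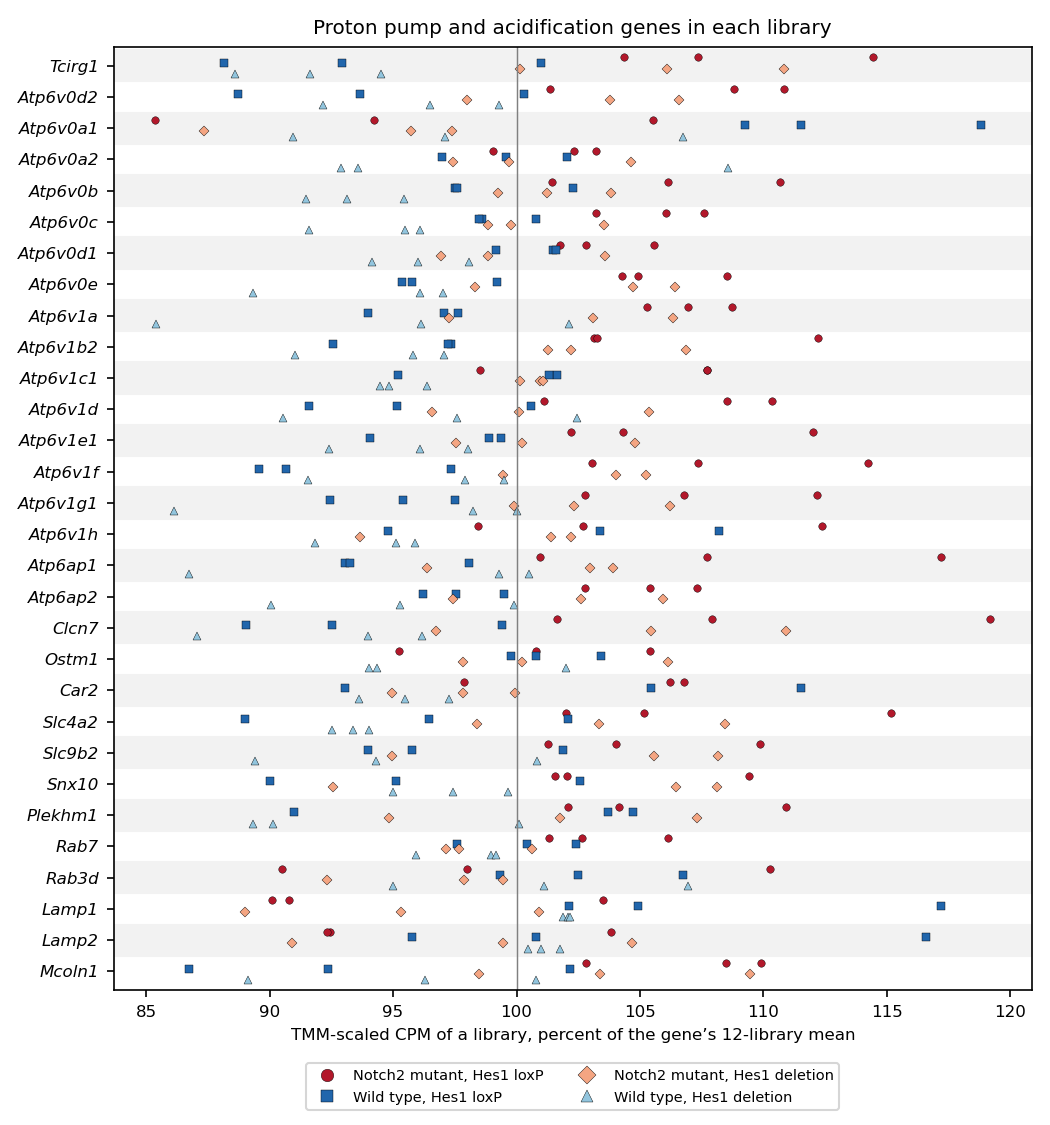
Level of 30 genes in each of 12 libraries, as percent of the gene's 12-library mean (TMM-scaled CPM). Each symbol is a library, coloured by group, with genes ordered by role. For Tcirg1 and Clcn7 the Notch2 mutant libraries lie to the right of wild type within each Hes1 state, and for Atp6v0a1 with Hes1 loxP to the left.

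The remaining pump subunits did not pass the test, and most had positive values. Over all 30 genes, 26 had a positive log2 fold change on the mean of both states (25 with library-size scaling, where Car2 turned), against 50.4% of all genes, with a median of 0.10. Of the 16 pump subunits tested 15 were positive. All 8 V1 subunits were positive, from 0.05 for Atp6v1h, the regulatory H subunit, to 0.16 for Atp6v1f. Atp6v0d2, the osteoclast d form, had 1326.7, 1424.3 and 1450.6 CPM in Notch2 mutant and 1161.0, 1312.9 and 1225.6 CPM in wild type Hes1 loxP libraries. With the deletion it had 1282.3, 1358.4 and 1394.9 CPM in Notch2 mutant and 1299.8, 1263.1 and 1206.2 CPM in wild type Hes1 deletion libraries. The mutants were above wild type without overlap with Hes1 loxP but not with the deletion, and the log2 fold change was 0.14 ± 0.038 (adjusted p = 0.0650). Atp6v1g1, a stalk subunit, had 0.15 ± 0.039 (adjusted p = 0.0596), and Atp6v1a, the catalytic subunit, 0.13 ± 0.040 (adjusted p = 0.0937). The widely used d form Atp6v0d1 had 0.05 ± 0.029 (adjusted p = 0.472) and the a form Atp6v0a2 0.03 ± 0.041 (adjusted p = 0.773).

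Atp6v0a1 was the pump subunit on the other side. It had 49.0, 43.7 and 39.6 CPM in Notch2 mutant and 55.1, 50.7 and 51.7 CPM in wild type Hes1 loxP libraries. With the deletion it had 45.2, 40.5 and 44.4 CPM in Notch2 mutant and 45.04, 42.2 and 49.5 CPM in wild type Hes1 deletion libraries. The groups were apart with Hes1 loxP and overlapped with the deletion. Its log2 fold change was -0.16 ± 0.055 (adjusted p = 0.133). The ratio of Tcirg1 to Atp6v0a1 counts averaged 39.2 ± 5.7 in Notch2 mutant and 28.2 ± 2.2 in wild type Hes1 loxP cultures, and 38.4 ± 1.3 in Notch2 mutant and 31.8 ± 3.6 in wild type Hes1 deletion cultures (SD, n = 3 each).

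Both accessory proteins had positive values, Atp6ap1 0.14 ± 0.043 (adjusted p = 0.103) and Atp6ap2, the prorenin receptor, 0.10 ± 0.033 (adjusted p = 0.114). Among the genes of ion and proton handling, the bicarbonate-chloride exchanger Slc4a2 had 0.16 ± 0.040 (adjusted p = 0.0515), and its exons overlap those of the antisense gene Fastk over 13.7% of their length. Slc9b2, a sodium-proton exchanger of osteoclasts, had 0.11 ± 0.040 (adjusted p = 0.152). Carbonic anhydrase Car2 had 0.02 ± 0.040 (adjusted p = 0.882; 95% interval -0.07 to 0.10). It had 276.2, 299.8 and 301.4 CPM in Notch2 mutant and 262.5, 314.7 and 297.5 CPM in wild type Hes1 loxP libraries, which overlapped.

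The lysosome genes were split. Mcoln1, a calcium channel of lysosomes, had 0.15 ± 0.047 (adjusted p = 0.0923), Snx10, a sorting nexin needed for the ruffled border, 0.10 ± 0.042 (adjusted p = 0.258), Plekhm1, an adaptor for lysosome fusion, 0.10 ± 0.044 (adjusted p = 0.252), and Rab7, a GTPase of late endosomes, 0.03 ± 0.029 (adjusted p = 0.721). The abundant membrane glycoproteins lay below wild type, Lamp1 at -0.15 ± 0.044 (adjusted p = 0.0913) and Lamp2 at -0.08 ± 0.048 (adjusted p = 0.442), as did Rab3d at -0.05 ± 0.051 (adjusted p = 0.648). Lamp1 had 709.2, 625.5 and 670.1 CPM in Notch2 mutant and 716.0, 717.5 and 718.3 CPM in wild type Hes1 deletion libraries. With Hes1 loxP it had 727.6, 638.2 and 633.4 CPM in Notch2 mutant and 823.8, 737.6 and 717.9 CPM in wild type Hes1 loxP libraries. Its groups were apart with the deletion and overlapped with Hes1 loxP, and its exons overlap those of the antisense gene Grtp1 over 9.31% of their length. Of the genes with the promoter motif, Lamp1 with its 4 matches had a negative value and Clcn7, Atp6v0b, Atp6v1a and Mcoln1 positive ones.

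The 2 Hes1 states use different libraries, so the direction of each gene can be set side by side. With Hes1 loxP, 25 of 30 genes had a positive log2 fold change (median 0.11), against 50.9% of all genes, and with the Hes1 deletion 26 of 30 (median 0.09), against 50.6%. The median of all genes was 0.003 with Hes1 loxP and 0.001 with the deletion. Without wild type Hes1 deletion replicate 3, 25 of 30 were positive with the deletion, with a median of 0.07. Direction was the same in both states for 29 of the 30 genes and for 62.5% of all genes tested; Ostm1 was the exception, at -0.01 ± 0.050 with Hes1 loxP and 0.07 ± 0.050 with the deletion. Mutant libraries lay above wild type without overlap for 15 of 30 genes with Hes1 loxP, against 9.83% of all genes, and for 8 of 30 with the deletion, against 6.06%. Below wild type without overlap lay 1 gene each, Atp6v0a1 with Hes1 loxP (8.51% of all genes) and Lamp1 with the deletion (6.40%). The shares of all genes were not matched to the 30 for level. The 30 were read in the same libraries, so they are not 30 separate observations. With the deletion, 0 of the 30 were called, against 0.0149% of all genes (2 genes, and 5 without wild type Hes1 deletion replicate 3), while 9 had an unadjusted p under 0.05, as did 6.69% of all genes; DESeq2 called 0 of the 30 there too. The interaction of the mutation with the deletion was called for 0 of 30 genes and 0 of 13403 by edgeR. Over all genes it was called for 12 without wild type Hes1 deletion replicate 3 (5 higher and 7 lower) and for 63 with no filter, none of them among the 30. At an unadjusted p under 0.05 it took 0 of the 30 and 506 of all genes (3.78%), and DESeq2 called 0 of the 30. Its values ran from -0.13 for Atp6v1f to 0.18 for Atp6v0a1, so no difference in the effect of the mutation between the Hes1 states was detectable for these genes, which does not show that it acted alike.

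**Figure D4:**
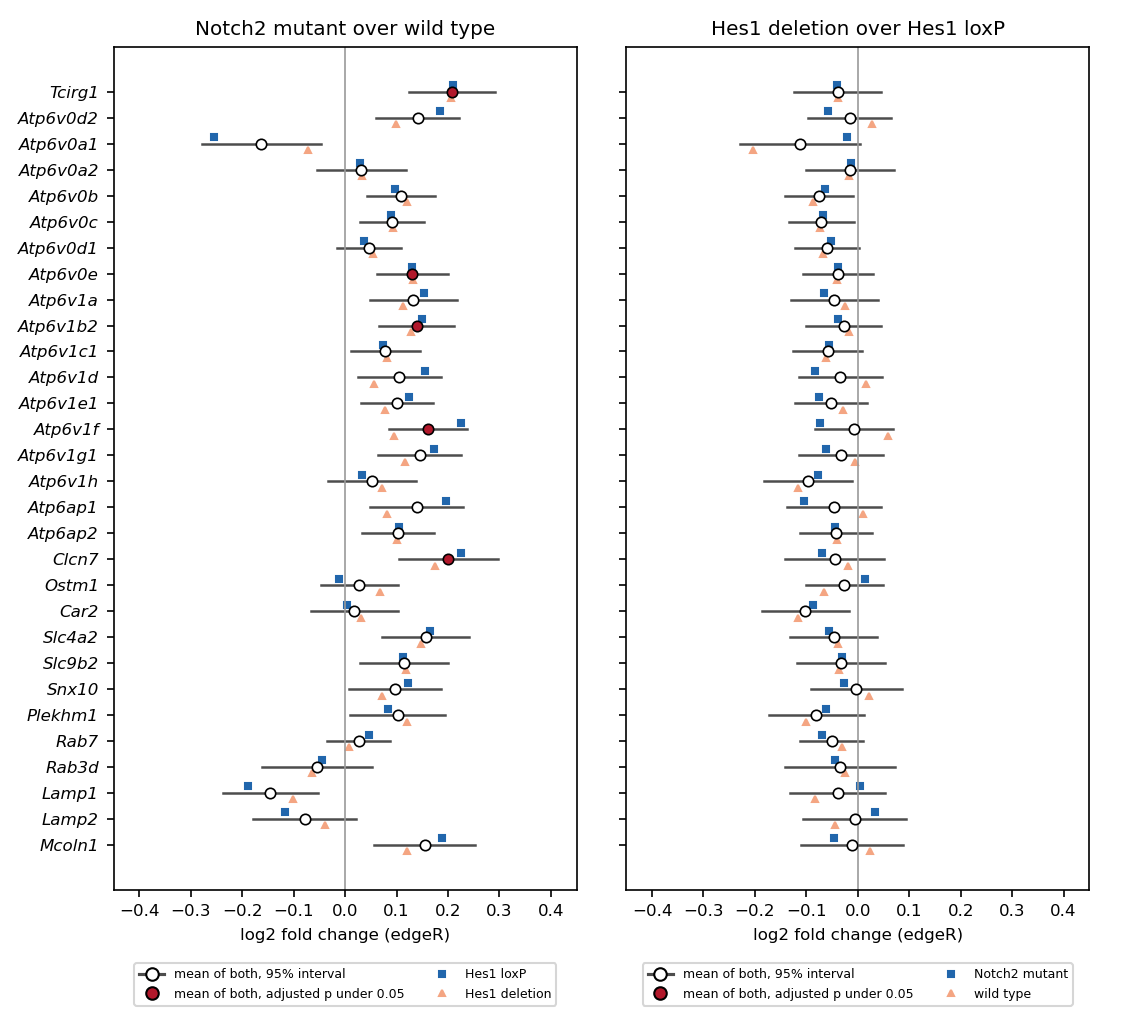
Log2 fold change of 30 genes, Notch2 mutant over wild type (left) and Hes1 deletion over Hes1 loxP (right). Circles and lines are the mean of both backgrounds with its 95% interval, filled red at an adjusted p under 0.05, and small symbols are each background alone. On the left 26 of 30 circles lie above 0, with Tcirg1 at 0.21, and on the right all 30 lie below 0, from -0.11 to -0.003, though 6 lie above it with library-size scaling.

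Markers of the osteoclast moved with these genes. The summed level of the 11 osteoclast markers ranged from 45345 to 51191 CPM in Notch2 mutant and 38409 to 41385 CPM in wild type Hes1 loxP libraries, and from 36483 to 41150 CPM in Notch2 mutant and 29988 to 36791 CPM in wild type Hes1 deletion libraries. On the mean of both states 6 of the 11 rose and 0 fell, among them Ocstamp, which cells need to fuse (0.22 ± 0.040, adjusted p = 0.00909), Acp5 (0.29 ± 0.056, adjusted p = 0.0133), Oscar (0.22 ± 0.048, adjusted p = 0.0224) and Mmp9 (0.25 ± 0.059, adjusted p = 0.0360). Of 10 macrophage markers 5 fell and 0 rose, including the scavenger receptors Cd36 (-0.62 ± 0.079, adjusted p = 0.00123) and Msr1 (-0.27 ± 0.053, adjusted p = 0.0138), the Fc receptor Fcgr1 (-0.51 ± 0.098, adjusted p = 0.0131) and the macrophage antigen Adgre1 (-0.26 ± 0.055, adjusted p = 0.0212). Their summed level overlapped, at 3018 to 3335 CPM in Notch2 mutant and 3294.5 to 3559 CPM in wild type Hes1 loxP libraries. With the deletion it was 3150 to 3346 CPM in Notch2 mutant and 3216 to 3288 CPM in wild type Hes1 deletion libraries. Most of this sum was Csf1r, whose means were higher in the mutant. They were 2191 against 2021 CPM in wild type with Hes1 loxP, and 2130 against 2009 CPM with the deletion. Of the 10 macrophage markers 8 had negative log2 fold changes on the mean of both, so the overlap of the sums does not describe most of them. With Hes1 loxP alone, where Atp6v1f was the pump gene called, the marker calls were Ocstamp higher and the macrophage genes Cd36, Msr1, Fcgr1 and Adgre1, the stromal gene Cxcl12 and the neutrophil collagenase Mmp8 lower. In bulk cultures, more osteoclasts per culture and more pump RNA per osteoclast cannot be told apart.

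Other cell types were minor. Of 10 stromal markers, 9 were tested and 1 fell, the chemokine Cxcl12 (-2.79 ± 0.446, adjusted p = 0.00414), and their summed level ran from 116.1 to 252.2 CPM in Notch2 mutant and 249.5 to 292.6 CPM in wild type Hes1 loxP libraries, and from 207.3 to 293.3 CPM in Notch2 mutant and 320.5 to 344.2 CPM in wild type Hes1 deletion libraries. The 8 neutrophil markers summed to 197.5 to 250.3 CPM in Notch2 mutant and 252.7 to 328.6 CPM in wild type Hes1 loxP libraries, without overlap. With the deletion they overlapped, at 181.05 to 230.2 CPM in Notch2 mutant and 185.1 to 252.1 CPM in wild type libraries. On the mean of both, 0 of the 8 were called, and all 8 had negative log2 fold changes (median -0.23). All 9 tested stromal markers were negative there too (median -0.48). The 6 lymphocyte markers summed to at most 5.99 CPM, and Cd3e and Cd3g were each at 0 in 6 libraries. The part of these shifts in cell makeup in the pump results was not tested.

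The genes around the pump were examined as lists for comparison, on the mean of both Hes1 states. Of 12 tested genes for assembly and regulation of the pump (14 listed), 0 were called, and their median log2 fold change was 0.02. Of 19 tested acid-base transporters (28 listed), 1 rose and 1 fell: Slc37a2, a sugar-phosphate transporter of osteoclasts (0.17 ± 0.036, adjusted p = 0.0217), and Slc9a9, a sodium-proton exchanger of endosomes (-0.40 ± 0.088, adjusted p = 0.0258). Of 8 transcription factors and signalling genes of the lysosome, 1 rose: Tfec, a member of the TFEB family (0.20 ± 0.047, adjusted p = 0.0328). Tfeb had 0.14 ± 0.050 (adjusted p = 0.147), Mitf -0.05 ± 0.038 (adjusted p = 0.577) and Tfe3 -0.06 ± 0.033 (adjusted p = 0.400). Of 29 tested lysosome genes outside the 31 (30 listed), 1 rose and 1 fell, the tetraspanin Cd63 (0.15 ± 0.035, adjusted p = 0.0360) and the sorting receptor Scarb2 (-0.18 ± 0.045, adjusted p = 0.0436). Within each Hes1 state alone, 0 genes of these 4 lists were called.

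The Hes1 deletion was compared with Hes1 loxP in the same way. It changed 0 of 30 genes in wild type cultures (0.0373% of all genes called, 5 genes, which became 26 without wild type Hes1 deletion replicate 3), 0 in Notch2 mutant cultures (0.0373%) and 0 on the mean of both (0.0821%); DESeq2 called 0 in each. At an unadjusted p under 0.05 stood 1, 0 and 4 of the 30, against 5.93%, 4.76% and 6.89% of all genes. All 30 log2 fold changes were below 0 on the mean of both, against 50.2% of all genes above 0, with a median of -0.04, but with library-size scaling 6 of the 30 were above 0 and the median was -0.02. Leaving out a library put 0 to 3 of the 30 above 0, with 3 without wild type Hes1 deletion replicate 1 or Notch2 mutant Hes1 deletion replicate 2. In Notch2 mutant cultures 3 of 30 were positive (7 with library-size scaling), against 49.0% of all genes, and in wild type cultures 6 of 30 (9 with library-size scaling), against 50.5%. Without wild type Hes1 deletion replicate 3, 1 of 30 was above 0 on the mean of both and 9 of 30 in wild type cultures. The values were small, from -0.11 ± 0.055 for Atp6v0a1 (adjusted p = 0.735) and -0.10 ± 0.040 for Car2 (adjusted p = 0.592) to -0.003 ± 0.042 for Snx10, and Tcirg1 had -0.04 ± 0.040 (adjusted p = 0.894; 95% interval -0.12 to 0.04). Deletion libraries lay below loxP libraries without overlap for 4 genes in wild type cultures, Atp6v0a1, Atp6v0b, Atp6v0c and Atp6v0d1 (5.17% of all genes), and for Rab7 in Notch2 mutant cultures (5.47%).

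Markers of other cell types are set beside these values. On the mean of both genotypes all 11 osteoclast markers were below 0 (median log2 fold change -0.06), all 9 tested stromal markers were above 0 (median 0.34) and 6 of 8 neutrophil markers were below 0 (median -0.29), and the part of these shifts in the values of the 30 genes was not tested. Of all these markers 1 was called, Ctsk, which fell by 1.05 ± 0.049 on the log2 scale (adjusted p = 6.14e-10). The labels do not say which allele deleted Hes1, so an effect of an allele at Ctsk itself and a change in the osteoclasts cannot be told apart, and Ctsk does not serve as a marker in this comparison. Leaving out Ctsk after its value was seen, the other 10 osteoclast markers summed to 31660 to 35844 CPM in Notch2 mutant Hes1 deletion libraries, against 34868 to 39729 CPM in Notch2 mutant Hes1 loxP libraries. In wild type they summed to 26015 to 31870 CPM with the deletion, against 29426 to 32137 CPM with Hes1 loxP, so the groups overlapped in both genotypes. Ctsk averaged 5032 CPM in Notch2 mutant Hes1 deletion cultures against 10827 CPM with Hes1 loxP, and 4534 CPM in wild type Hes1 deletion cultures against 9036 CPM with Hes1 loxP. By group, the Notch2 mutant Hes1 loxP mean was the highest for 25 of the 30 genes and the wild type Hes1 deletion mean the lowest for 20. The matching shares of all genes were not computed, so these counts have no background to be read against. Replicate 3 of the former group was the highest library for 18 genes and replicate 3 of the latter the lowest for 14. The group order was not counted without them. Across all 12 libraries the coefficient of variation of a gene's CPM ran from 2.87% for Rab7 to 10.3% for Atp6v0a1. The spread of other genes was not computed for comparison.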

How the data were processed

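The deposited values are raw counts, whole numbers of reads per gene. The submitters' processing notes name HISAT2, SAMtools, Picard, HTSeq and DESeq2 and the build GRCm38 for what the authors did; versions, annotation release and strand setting are not given in the sources available, so antisense overlaps may not be separated. Per the labels' protocols, libraries were stranded, from mRNA, and read as 75 bp pairs in 1 pool. Summary rows (15.8 to 19.0% of a file's total) were left out. The labels call the samples biological replicates. Gene IDs were named through GENCODE M21 (GRCm38, positions 1-based), and near-identical copies were sought with blastn 2.17.0.

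All 12 libraries entered 1 edgeR 4.0.16 quasi-likelihood fit (R 4.3.3) of group means, scaled by TMM and filtered with filterByExpr at a minimum count of 10 and total of 15. It kept 13403 genes. P-values are two-sided, and standard errors come from the F statistic. The 7 comparisons were the Notch2 mutation and the Hes1 deletion, each in both backgrounds and as their mean, and the interaction. RPKM divides by the length of the longest principal transcript. A depth of 13832368 to 19293772 counts sets the counting error, which may be understated because reads carry no molecular identifiers. The genes, lists and alternatives were chosen with earlier results of these data known. All 31 genes were named, plus up to 4 called genes per list and comparison with the smallest adjusted p, Notch2, Hes1 and markers. Alternatives were RLE or library-size scaling, dropping the filter, requiring a mean count of 50, DESeq2 1.42.0, limma-voom (limma 3.58.1), a replicate block, only the groups compared and each library left out. The fit was tested on simulated counts. The single-cell part of the study is not analysed here.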

Additional observations from a re-analysis of the deposited data

How the results depend on the processing

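With Hes1 loxP, where 1 of 30 genes was called between Notch2 mutant and wild type cultures, no filter gave 8 (6 higher, and Atp6v0a1 and Lamp1 lower), DESeq2 gave 4, only the groups compared gave 0, and leaving out a library gave 0 to 2. Calls over all genes rose as well, from 104 of 13403 to 657 of 25080 with no filter and 242 of 12437 with DESeq2. With the Hes1 deletion the count of 0 became 1 (Tcirg1) with no filter, where calls over all genes rose from 2 to 138. On the mean of both states, where 5 were called, library-size scaling gave 3, no filter 13 (11 higher, and Atp6v0a1 and Lamp1 lower), DESeq2 12 (11 higher, and Lamp1 lower) and limma-voom 7, and leaving out a library gave 0 to 6. The count of 0 stayed 0 in the Hes1 comparisons and the interaction under every alternative run. Over all genes on that mean, 253 calls became 853 with no filter and 420 with DESeq2; the cause was not tested. Omitting 1 library left 123 (replicate 1) or 134 (replicate 2) for wild type Hes1 loxP, 151 for replicate 3 of Notch2 mutant Hes1 loxP, 158 for replicate 3 of wild type Hes1 deletion and 63 for replicate 3 of Notch2 mutant Hes1 deletion.

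With replicate number as a block, 7 genes were called on the mean of both (6 higher, and Lamp1 lower). Over all genes the block gave 325 calls there, against 253 without it, and 148 with Hes1 loxP, against 104. The labels do not say that the numbers pair the samples, and the data do not settle it. Correlations of same-numbered libraries ran from -0.090 to 0.107, and 8 of 12 libraries correlated best with their own number, a hint from the data and not the design. Between the Hes1 loxP groups the same-numbered correlations were 0.098, 0.107 and 0.077, and the others were negative. A pair with different numbers in the deletion groups reached 0.121. Of 4110 values of a gene under an alternative, 4027 stayed on their side of the threshold, 46 lost a call and 37 gained one. No called value changed sign, and 161 uncalled values did. Depth limits what can be said of Hes1 and of Atp6v0e2, with 36 counts.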
